A study of Mus musculus with 9 samples.

Results

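The genes described here encode Notch ligands, receptors and their best known targets in the early mouse nephron: Dll1, Jag1, Notch1, Notch2, Lfng, Hes1, Hes5, Hey1, Heyl and Nrarp. They were read through the 19 probe sets whose only gene symbol in the platform annotation is 1 of these 10, out of 18194 genes with such a symbol on the array. Of the 19, 18 were bright enough to be tested and 1, a dim Lfng probe set, was not. Renal vesicles were laser captured from kidneys at stage E12.5 of Lim1 mutant mice (4 arrays) and wild-type mice (5 arrays), and each array carried RNA of an independent sample of about 30 to 50 vesicles. The Lim1 gene is listed as Lhx1 in the annotation and codes for a homeodomain transcription factor of the LIM class. The labels do not give the allele, the strain, the sex or whether the mutation was confined to the kidney, nor how many embryos made up a sample.

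Notch signalling passes between touching cells. A ligand such as Dll1 or Jag1 on one cell binds a Notch receptor on its neighbour, the receptor is cut by ADAM proteases and gamma-secretase, and its freed intracellular part joins Rbpj in the nucleus to switch on genes of the Hes and Hey families. In the mouse kidney the pathway is known for its part in the proximal nephron, where Notch2 is the receptor that podocyte and proximal tubule precursors need, and both ligands are found in the renal vesicle.

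Signals are given as the authors deposited them, on a linear scale. A log2 difference is mutant minus wild type after quantile normalisation of log2(signal + 42.41), with its standard error from limma and, where given, its 95% interval. This scale understates differences of dim probe sets. Array medians lay between 144 and 195. The altered gene was checked through 2 probe sets of Lhx1. At the first the mutant signals were 6.88 to 10.5, against 2327 to 17587 in the wild type (log2 difference -6.64 ± 0.57, limma adjusted p = 0.00329). At the other, the mutant signals were 4108 to 4951, against 1696 to 18555 in the wild type (-0.86 ± 0.58, limma adjusted p = 0.833). The altered stretch of Lhx1 is not named in the labels, so the signal kept at this probe set cannot be read as intact or altered transcript. Wnt4, a secreted signal that vesicles need to form, was bright on all arrays and read 15930 to 43231 in the mutants and 12926 to 41699 in the wild type. Of the cap mesenchyme markers, Six2 read 1134 to 3006 in the mutants and 858 to 1154 in the wild type, and Cited1 was below the filter. Over the 6 of 8 cap markers measured, 2 differences lay above 0 and 4 below, with a median of -0.26. In bulk samples of this kind, fewer cells of a type and less RNA per cell cannot be told apart.

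No Notch gene passed the test. Of the 18 member probe sets tested, 0 reached a limma adjusted p under 0.05, where 0.0333% of the 27022 probe sets tested did. An unadjusted p under 0.05 was reached by 4 of the 18, against 6.67% of all probe sets: Dll1, 1 probe set each of Jag1 and Hes5 with lower signals in the mutants, and 1 of Heyl with higher signals. This count was 1 without mutant array 3 or 4, 2 without mutant array 1 or 2 or wild-type array 5, and 5 without wild-type array 3. Differences lay above 0 at 9 probe sets and below 0 at 9, with a median of -0.05, against 0.03 over all probe sets tested. The groups did not overlap at 1 of the 18, a Heyl probe set, against 2.25% of all.

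**Figure D1:**
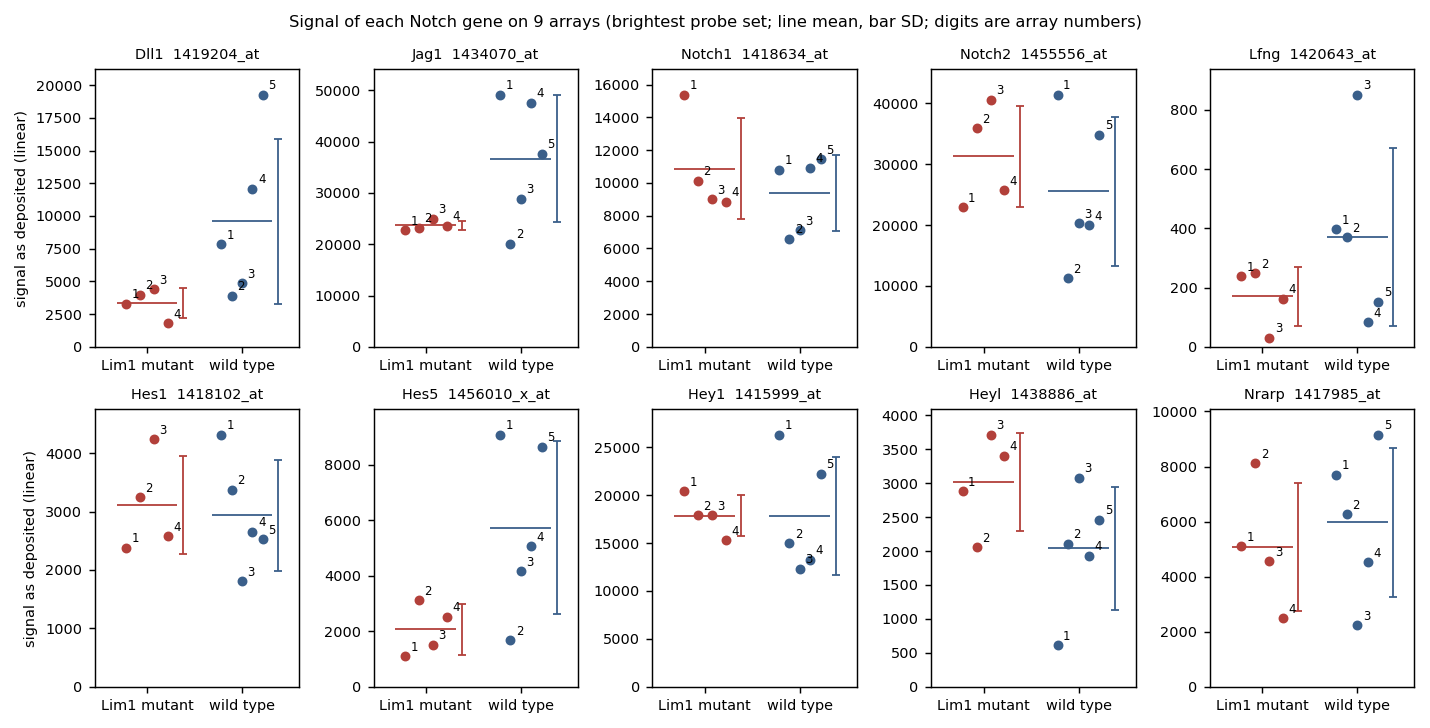
Each panel plots the deposited signal (linear axis from 0) of the brightest probe set of 1 Notch gene on the 4 Lim1 mutant arrays (left) and the 5 wild-type arrays (right), with the group mean as a line, the SD as a bar and the array number beside each point. For Dll1, Jag1 and Hes5 the 3 highest points are wild-type arrays 1, 4 and 5, while wild-type array 2 lies within or below the range of the mutants.

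Dll1, the Delta-like ligand of the vesicle, has 1 probe set. Its mutant signals were 3292, 3987, 4394 and 1799, against 7837, 3891, 4874, 12081 and 19282 on wild-type arrays 1 to 5. Every mutant array lay below the wild-type median, yet mutant arrays 2 and 3 lay above wild-type array 2, so the groups overlapped. The means were 3368 ± 1141 in the mutants (SD, n = 4) and 9593 ± 6284 in the wild type (n = 5), and the log2 difference was -1.33 ± 0.48 (95% interval -2.38 to -0.28, limma unadjusted p = 0.0172, adjusted p = 0.696). The difference stayed between -1.61 and -1.02 when each array was left out in turn.

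Jag1, a Serrate-type ligand, was read by 3 probe sets, and all 3 had differences below 0. At the brightest the mutant signals were 22776, 23238, 24991 and 23607, against 49181, 20141, 28895, 47557 and 37661 in the wild type. The mutant arrays were close together, with an SD of 954 against 12346 in the wild type, and wild-type array 2 was the lowest of all 9. The log2 difference was -0.52 ± 0.21 (95% interval -0.98 to -0.05, limma unadjusted p = 0.0326, adjusted p = 0.73). At the second probe set the mutants read 416 to 1558 and the wild type 416 to 4535, a difference of -0.97 ± 0.64 (limma adjusted p = 0.827). The remaining probe set was dim, at 80.7 to 150 in the mutants and 45.4 to 340 in the wild type, with a difference of -0.50 ± 0.50 (limma adjusted p = 0.895).

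Both receptors had differences above 0 at their brighter probe sets, and only the dim Notch2 probe set lay below 0. None of these differences passed the test. Notch1 at its brighter probe set read 15392, 10144, 9018 and 8858 in the mutants, against 10811, 6593, 7120, 10929 and 11453 in the wild type. Only mutant array 1 lay outside the wild-type range, and the difference of 0.24 ± 0.27 had an interval of -0.34 to 0.82 (limma adjusted p = 0.907). Without that array it was 0.051. Its other probe set gave 468 to 885 in the mutants and 33.1 to 1045 in the wild type (0.95 ± 0.71, limma adjusted p = 0.857).

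Notch2, the receptor needed for proximal fates in the mouse nephron, read 22965, 35935, 40595 and 25764 in the mutants at its brighter probe set, against 41450, 11275, 20277, 19945 and 34872 in the wild type. Mutant values lay inside the wild-type range, though all 4 were above the wild-type median, and the difference was 0.40 ± 0.31 (95% interval -0.28 to 1.08, limma adjusted p = 0.861). The dim probe set pointed the other way at -0.56 ± 0.49 (limma adjusted p = 0.88), with 43.7 to 254 in the mutants and 76.7 to 340 in the wild type. The 2 probe sets thus differ in sign, and neither passed the test. Without wild-type array 2, the lowest at the brighter probe set, the difference there was 0.155.

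Lfng encodes the fringe glycosyltransferase that sets which ligands a Notch receptor answers to. Both of its probe sets were dim. The tested one read 238, 249, 30.0 and 163 in the mutants, against 397, 370, 851, 83.4 and 152 in the wild type. The groups overlapped through wild-type arrays 4 and 5, and the difference of -0.94 ± 0.64 did not pass (95% interval -2.35 to 0.47, limma adjusted p = 0.837). Its order of arrays was unlike that of the ligands, with wild-type array 3 highest. The untested probe set lay at 5.97 to 68.2 in the mutants and 7.08 to 126 in the wild type.

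**Figure D2:**
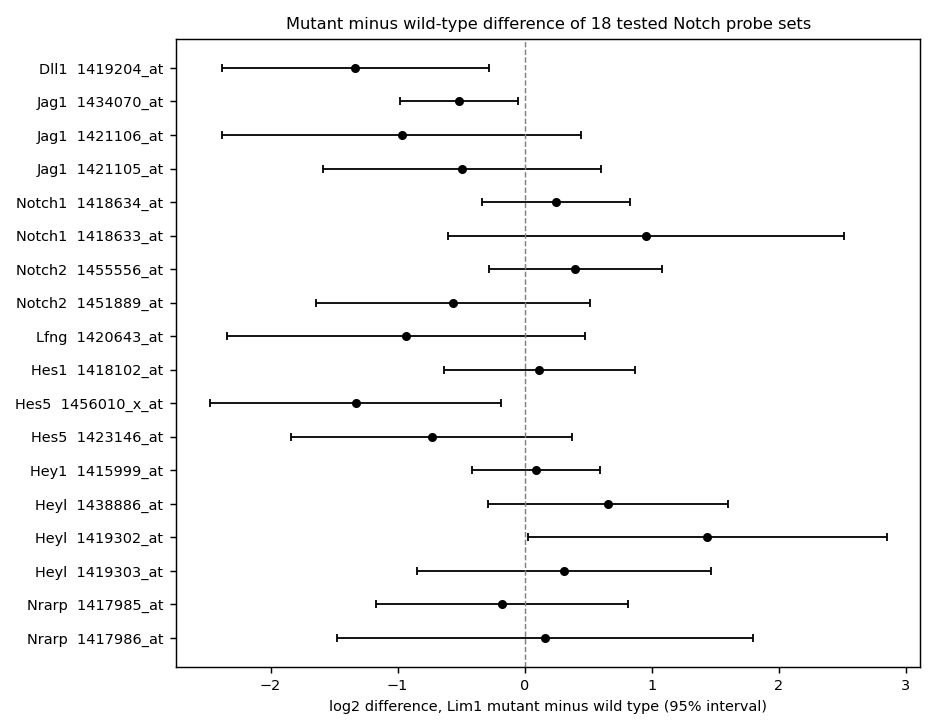
Points give the log2 difference (mutant minus wild type, x axis in log2 units) of each of the 18 tested Notch probe sets, with bars for the 95% interval of each on its own. Intervals of 4 probe sets leave out 0, those of Dll1, 1 of Jag1 and 1 of Hes5 on the lower side and 1 of Heyl on the higher side, and none passed after adjustment over all probe sets.

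Among the targets, Hes5 and Heyl pointed in opposite directions and Hes1 and Hey1 lay near 0. Hes5 encodes a basic helix-loop-helix repressor that active Notch is known to switch on. Its brighter probe set (whose x suffix marks probes that may match other transcripts too) read 1101, 3116, 1514 and 2516 in the mutants, against 9081, 1683, 4157, 5064 and 8642 in the wild type. Wild-type array 2 lay within the mutant range, and the other 4 wild-type arrays lay above all mutants. The means were 2062 ± 920 in the mutants and 5725 ± 3123 in the wild type (SD, n = 4 and 5), and the log2 difference was -1.33 ± 0.52 (95% interval -2.48 to -0.18, limma unadjusted p = 0.0266, adjusted p = 0.722). The other probe set read 466, 1126, 568 and 940 in the mutants, against 1953, 547, 958, 1760 and 1428 in the wild type, a difference of -0.73 ± 0.51 (limma adjusted p = 0.838). Both Hes5 probe sets ranked wild-type arrays 1, 4 and 5 highest and mutant array 1 lowest.

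The Hes5 promoter is shown because Hes5 was the target with the same 3 highest arrays as both ligands. The Rbpj recognition letters GTGGGAA were searched on both strands of the 250 bases before the start site that RefSeq gives (GRCm38.p6). They occur in 5.42% of 32851 such promoters. Of the 10 genes, 7 had a promoter in the table, and 2 of these held the letters: Hes5 at 2 places and Lfng at 1. A pair or more was found in 0.161% of promoters. The matches are printed in capitals, in 30 bases read along the strand of the gene; the first is on the opposite strand and so reads TTCCCAC.
Hes5, chr4:154960686-154960715, plus strand: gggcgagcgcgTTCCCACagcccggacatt
Hes5, chr4:154960829-154960858, plus strand: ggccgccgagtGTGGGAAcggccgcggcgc
Lfng, chr5:140607221-140607250, plus strand: ccgtatcccacGTGGGAAggagagatctcc
The second Hes5 match starts 83 bases before the start site and the first 226 bases before it. These are letter matches only, and the arrays give no measure of binding there. Dll1, Jag1, Notch1, Notch2 and Nrarp held no match in this window. Hes1, Hey1 and Heyl are named only.

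Hes1, the other Hes repressor of the set, had 1 probe set. It read 2383, 3249, 4239 and 2577 in the mutants, against 4318, 3371, 1811, 2656 and 2526 in the wild type. The groups covered much the same range, and the difference was 0.12 ± 0.34 (95% interval -0.64 to 0.87, limma adjusted p = 0.972). Unlike Hes5, wild-type arrays 4 and 5 were not among its highest.

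Hey1, a Hey-family repressor also known from endothelium, read 20414, 17883, 17888 and 15283 in the mutants, against 26327, 14988, 12317, 13274 and 22218 in the wild type. All mutant values lay inside the wild-type range. The means were 17867 ± 2095 in the mutants and 17825 ± 6137 in the wild type (SD, n = 4 and 5), and the log2 difference was 0.09 ± 0.23 (95% interval -0.42 to 0.59, limma adjusted p = 0.969). The interval covers changes up to that size in either direction.

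Heyl, another Hey-family gene, is known in the mouse from the nephron and from mural cells of vessels. It was read by 3 probe sets, all with differences above 0. At the second brightest the mutants read 3931, 4942, 2625 and 2563, against 1864, 1765, 168, 1912 and 2147 in the wild type, so every mutant array lay above every wild-type array. The difference was 1.44 ± 0.64 (95% interval 0.03 to 2.85, limma unadjusted p = 0.0464, adjusted p = 0.748), and without wild-type array 3 it was 0.82. With median centring in place of quantile normalisation the groups overlapped here too. The probe set with the highest mean read 2882, 2059, 3717 and 3404 in the mutants, against 609, 2107, 3081, 1931 and 2461 in the wild type, a difference of 0.66 ± 0.43 (limma adjusted p = 0.826). The outlying arrays differ between the probe sets: wild-type array 3 was lowest at the second brightest and the highest of the wild type at the brightest, where wild-type array 1 was lowest. The dimmest probe set had 79.4 to 319 in the mutants and 39.0 to 269 in the wild type (0.31 ± 0.53, limma adjusted p = 0.947).

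Nrarp, a small ankyrin-repeat protein that Notch induces and that dampens the receptor's activity, had overlapping groups at both of its probe sets. At its brighter probe set the mutants read 5114, 8125, 4553 and 2493, against 7707, 6274, 2233, 4527 and 9162 in the wild type (-0.18 ± 0.45, 95% interval -1.17 to 0.81, limma adjusted p = 0.965). The other read 390 to 1699 in the mutants and 241 to 2985 in the wild type, with a difference of 0.16 ± 0.75 (limma adjusted p = 0.984). The sign of both depended on which array was left out.

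Dll1, Jag1 and Hes5 had the same 3 highest arrays, though not in the same order. At all 6 of their probe sets the 3 highest arrays were wild-type arrays 1, 4 and 5, and at none of the 12 tested probe sets of the other 7 genes was this so. Over all tested probe sets, 455 of 27022, or 1.68%, had these arrays as their 3 highest. This count was made after the values were seen, and probe sets of 1 gene are not independent of each other.

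The wild-type arrays also differed in marker genes. Each measured marker was set against its own 9-array mean in log2 units, and the median of these deviations gives the level of its list. The renal vesicle list without Dll1 and Jag1 (8 of 8 genes measured, Lhx1 among them) stood at -0.24 to -0.13 in the mutants. On wild-type arrays 1 to 5 it stood at 0.43, -0.21, -0.69, 0.68 and 0.49. The arrays high for Dll1, Jag1 and Hes5 were thus also high for this list. Between the groups, 4 of its differences lay above 0 and 4 below, with a median of -0.11. The distal vesicle list (8 of 9 measured) shares Lhx1 and Pou3f3 with the renal vesicle list. It was at -1.09 to -0.41 in the mutants and 0.22 to 1.35 in the wild type, highest on wild-type arrays 4 and 5. Of its differences, 1 lay above 0 and 7 below, with a median of -0.75, against 0.07 over all genes. An unadjusted limma p under 0.05 was reached by 3 of the 8, all lower in the mutants, against 7.73% of all genes. After adjustment 0 passed. Its first markers, Pou3f3 and Sox9, had differences of -0.64 ± 0.52 and -0.51 ± 0.46 (limma adjusted p = 0.867 and 0.881). Podocyte markers (4 of 7 measured) stood at 0 to 0.74 in the mutants and -0.78 to 0.28 in the wild type. All 4 differences lay above 0, with a median of 0.65 (Wt1 0.33 ± 0.29, limma adjusted p = 0.878). Proximal tubule markers (3 of 6 measured) stood at -0.75 to 0.14 in the mutants and -0.24 to 0.88 in the wild type. All 3 differences lay below 0, with a median of -0.47 (Hnf4a -1.46 ± 0.89, limma adjusted p = 0.811), and Cubn was below the filter.

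Ureteric bud markers (8 of 10 measured) ranged from -0.86 to 0.65 in the mutants and from -1.06 to 1.41 in the wild type, highest on wild-type array 2. Ret, the receptor of the bud tip, read 4688 on that array and 7618 on wild-type array 3, against 4.14 to 379 in the mutants and 26.5 to 485 on the other wild-type arrays. Wnt11, also of the bud tip, read 1080 to 2334 in the mutants and 528 to 1741 in the wild type. Wild-type array 3 was highest for macrophage markers (5 of 6 measured), at 3.06 against -0.21 to 0.63 in the mutants and -1.13 to -0.45 on the other wild-type arrays. It was also highest for endothelium (8 of 10 measured), at 1.76 against -0.75 to 0.08 in the mutants and -0.62 to 0.94 on the other wild-type arrays, with 0.94 on array 4, and for mural cells (4 of 6 measured), at 1.58 against -0.56 to 0.86 in the mutants and -1.02 to 0.20 on the other wild-type arrays. The macrophage receptor Csf1r read 16543 on wild-type array 3, against 962 to 1926 in the mutants and 195 to 1334 on the other wild-type arrays. Cd68 read 535 on that array, against 438 to 1394 in the mutants. On the other wild-type arrays Cd68 read 15.0 to 1024, highest on array 4. Among vessel genes, Kdr read 168 to 1150 in the mutants and 127 to 4011 in the wild type. It was highest on wild-type array 4, with 3758 on array 3. Pdgfrb read 1131 to 6330 in the mutants and 1335 to 7604 in the wild type, and Rgs5 435 to 2157 in the mutants and 185 to 10182 in the wild type, while Pecam1 was below the filter. None of these markers had a signal of 0, but signals stayed above 0 even at the lowest readings, such as 4.14 for Ret. This therefore does not show which cells were present. Wild-type arrays 2 and 3 were also the wild-type arrays lowest for Dll1 and for Jag1 at its brightest probe set. The cap mesenchyme list was highest on these arrays, at 0.5 and 0.42. It stood at -0.35, -0.48 and -0.27 on wild-type arrays 1, 4 and 5, and at -0.16 to 0.05 in the mutants. The part of these cells in the Notch values was not tested.

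**Figure D3:**
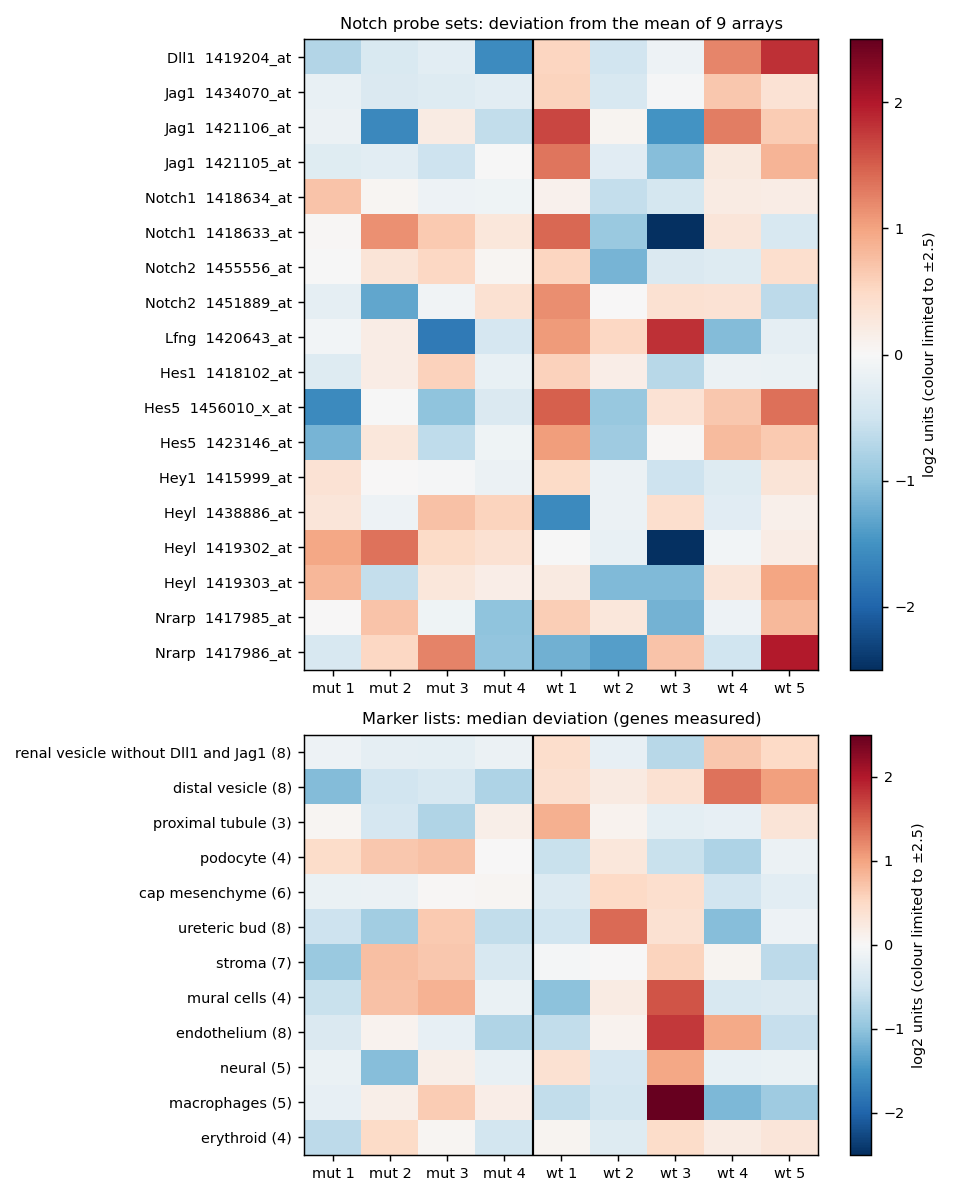
Rows of the upper panel are the 18 tested Notch probe sets and rows of the lower panel are marker lists, with the 4 mutant arrays left of the line and the 5 wild-type arrays right of it; colour gives the deviation from the mean over the 9 arrays in log2 units (for lists, the median over genes), limited to ±2.5. Dll1, Jag1 and Hes5 are red on wild-type arrays 1, 4 and 5, as is the vesicle list without Dll1 and Jag1, while macrophage and endothelial lists peak on wild-type array 3.

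Removing single arrays moved these values without bringing a call. Without wild-type array 2, the groups did not overlap at 4 of the 18 probe sets, against 4.1% of all probe sets in that fit: Dll1 (-1.61 ± 0.46), the brightest Jag1 probe set (-0.69 ± 0.18), the brighter Hes5 probe set (-1.72 ± 0.43) and the second Heyl probe set (1.55 ± 0.71), which was also free of overlap with all 9 arrays. Their limma adjusted p in that fit was 0.544, 0.465, 0.459 and 0.718. Wild-type array 2 had already been seen to overlap the mutants at Dll1, Jag1 and Hes5. The count of 4 follows from those values, and the share of all probe sets is no like measure for it. Leaving out any other single array gave 1. Wild-type array 3 was the lowest of the 9 arrays at 7 of the 18 Notch probe sets, against 17.4% of all tested probe sets. These 7 were Hes1, Hey1 and 1 or more probe sets of Jag1, Notch1, Heyl and Nrarp. The 3 prime to 5 prime signal ratio of the Gapdh control, which grows as amplified transcripts get shorter, was 87.6 on that array, against 17.8 to 61.4 in the mutants and 12.4 to 36.2 on the other wild-type arrays. The same ratio of the Actb control was 18 on that array, against 16.3 to 25.2 in the mutants and 14.7 to 21.7 on the other wild-type arrays, so it did not stand apart there. The part of transcript length in the low values was not tested.

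The genes most like Dll1 over the 9 arrays, by Pearson's r of the normalised log2 values with 1 probe set per gene, were Rbm41 (0.956), Hdac3 (0.944), Cyp51 (0.937) and Sgms1 (0.933). For Jag1 they were Dhx36 (0.967), Rrm2 (0.948), Atp13a3 (0.946) and Usp9x (0.93). These are the highest of 13226 genes compared on only 9 arrays, of which 8 genes exceeded 0.9 for Dll1 and 6 for Jag1, and the correlations describe these arrays only.

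The other genes of the pathway did not pass either. Of a list of 50, 42 were tested, each by its brightest probe set. Of these, 0 had a limma adjusted p under 0.05, against 0.0529% of the 13226 genes, and 1 had an unadjusted p under 0.05, against 7.73%. Differences were above 0 for 27 and below 0 for 15, with a median of 0.17, against 7467 above and 5759 below and a median of 0.07 over all genes. The groups did not overlap for 1 of the 42, against 2.77% of all genes.

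That gene was Poglut1, which adds O-linked glucose to the EGF repeats of Notch receptors. It read 10936, 7839, 10114 and 11947 in the mutants, against 6208, 7785, 3847, 3514 and 6796 in the wild type. The lowest mutant and the highest wild-type array were nearly equal, and the difference was 0.95 ± 0.29 (95% interval 0.31 to 1.58, limma unadjusted p = 0.00712, adjusted p = 0.647). All 4 genes of this role had differences above 0, with a median of 0.52: besides Poglut1 they were Pofut1, which adds O-fucose (0.69 ± 0.35), and the fringes Mfng (0.35 ± 0.81) and Rfng (0.30 ± 0.35). Lfng, the fringe of the member set, had a difference below 0.

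In each of the remaining roles the gene with the lowest p is given. Among ligands it was Dlk1, a non-canonical ligand also known from mesenchyme, with 1913 ± 1047 in the mutants and 994 ± 1196 in the wild type (SD, n = 4 and 5; 1.37 ± 0.71). It was the 1 ligand of 5 with a difference above 0, and the median of the 5 was -0.19. Of the other receptors, Notch3 had 5182 ± 800 in the mutants and 4411 ± 1441 in the wild type (0.29 ± 0.31). Neurl1a, a ubiquitin ligase for ligand endocytosis, had a difference of 1.12 ± 0.52, and 3 of the 4 genes of that role lay above 0. None of these groups of values was free of overlap.

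Of the 7 genes for receptor cleavage, 6 lay above 0, and the lowest p was that of the gamma-secretase subunit Aph1a (0.56 ± 0.29). In the nuclear complex Kat2b, an acetyltransferase, averaged 1054 ± 675 in the mutants and 3315 ± 1978 in the wild type (SD, n = 4 and 5; -1.78 ± 0.85), and without mutant array 2, which read 88.4, its difference was -0.92. Of the 4 genes of that complex 2 lay above 0 and 2 below, while Rbpj itself lay at 0.05 ± 0.32. Tle3, a Groucho-type corepressor, had a difference of 0.57 ± 0.30, and 3 of the 5 corepressors lay below 0. Numb, which inhibits Notch, had a difference of 0.59 ± 0.41, and 7 of 9 inhibitors and turnover genes lay above 0. Hes6 was at -0.04 ± 0.29 and Hey2, dim, at -0.04 ± 0.48. Limma adjusted p for the genes named in these roles lay between 0.748 and 0.994.

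**Figure D4:**
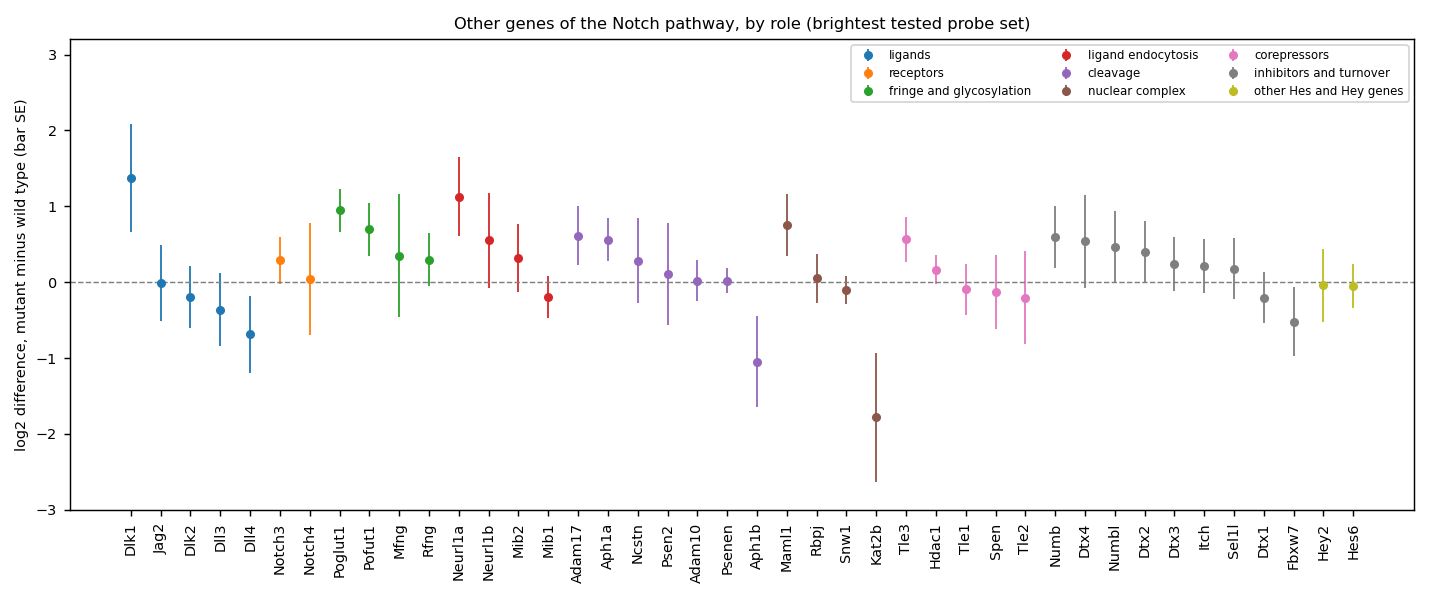
Points give the log2 difference (mutant minus wild type, y axis) of the 42 tested pathway genes that are not members, coloured and ordered by role, with bars for the standard error. Values run from -1.78 for Kat2b to 1.37 for Dlk1, and none passed after adjustment over all probe sets.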

How the data were processed

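The authors deposited linear intensities for the 45101 probe sets of an Affymetrix mouse array, made with the GCOS software, per the submitters' processing notes. No source used here gives its version or algorithm. RNA had been amplified in 2 rounds, per the labels' protocols, which favours transcript 3 prime ends. Trimmed means agreed at 1500 on all arrays, so arrays had been scaled before deposit.

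Of the probe sets, 34958 had 1 symbol in the platform annotation, 932 several and 9211 none. Values were transformed as log2(value + 42.41), the 25th percentile, and quantile normalised. After 64 control probe sets were left out, the 27022 at or above the 40th percentile of mean were tested with limma 3.58.1 in R 4.3.3 (trend, two-sided, Benjamini-Hochberg over all of them, 0.05). A gene was read by its brightest tested probe set. The fit was run on simulated data with independent noise for each probe set. Variation shared by many genes of an array was not simulated, so that check does not cover it. The number of arrays limits precision, and p-values measure the spread between samples of unknown litters.

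The members and gene lists were chosen with earlier results of these data known. Named besides the members were pathway genes without overlap, the lowest-p gene of each role, and the 4 genes most correlated with Dll1 and Jag1. The pathway genes outside the 42 tested are not analysed here. Also named were Lhx1 and the first 2 markers of each list described, with only the first for the podocyte list. Mfng, Rfng, Pofut1, Rbpj and Hey2 were named after their values were seen. Alternatives covered normalisation, filter, pseudocount, variance trend, array weights, single arrays and the replicate number.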

Additional observations from a re-analysis of the deposited data

Results flagged for a closer look

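Within 38 groups of values (19 Notch probe sets in each group of arrays), Dixon's test picked out an array in 3. About 1 group in 20 would be picked by chance if the signals were normally distributed, or 1.9 here. The test was run on linear signals, whose distribution was not checked, so the true chance rate is not known. At the second brightest Heyl probe set, wild-type array 3 read 168, against 1765 to 2147 on the other wild-type arrays. At the untested Lfng probe set, mutant array 2 read 68.2, with the remaining mutant arrays at 5.97 to 15.7, and wild-type array 1 read 126, against 7.08 to 9.76 on the other wild-type arrays.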

How the results depend on the processing

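No member probe set and no other pathway gene passed under any of the alternatives, which covered normalisation, filter, pseudocount, variance trend, array weights, the replicate block and single arrays, and the mean over a gene's probe sets for the pathway. Signs held in all fits for Dll1, Jag1, Hes5, Heyl, Lfng, Notch1 and Notch2. The number of member probe sets without overlap was 0 with median centring, and 1 to 4 with single arrays left out. With single arrays left out, Hes1 ranged from -0.054 to 0.27, Hey1 from -0.034 to 0.21, the Nrarp probe sets from -0.49 to 0.13 and from -0.22 to 0.67, and Hes6 from -0.21 to 0.10. Hey1 was at -0.037 with median centring and Hes6 at 0.061 without wild-type arrays 1 and 3. With the replicate block the brighter Nrarp probe set was at 0.005, and 0 of 27022 probe sets passed in limma, with 1756 at unadjusted p under 0.05. Arrays of the same number showed correlations of their deviations of only -0.11 to 0.05. For 2 mutant arrays the wild-type array of the same number was still the most alike of those compared. So few values cannot settle whether the number pairs the arrays. The cause of these reversals was not tested; each concerned a difference smaller than its standard error. The number of member probe sets at an unadjusted p under 0.05 was 1 with the replicate block and 2 without further normalisation. Over all probe sets 0 to 12 passed, depending on the alternative.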
